A study of Mus musculus with 6 samples.

Results

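Rap1 is a small GTPase that turns the cytoplasmic side of an integrin on, so that its outer part can bind ligand, and the 10 genes described here encode the Rap1 proteins, the enzymes that load or unload them, and the adaptors that carry the signal to the integrin tail. They were chosen by gene symbol from a fixed list (Rap1a, Rap1b, Rapgef1, Rapgef2, Rapgef3, Rasgrp2, Rasa3, Sipa1, Tln1 and Fermt3), and 10 of 10 were found among 55573 genes measured; all 10 were among the 16493 genes that passed the filter on low counts. The RNA-seq libraries were from mouse cells labelled as megakaryocytes, 3 of genotype WT and 3 of genotype Abcc4-/-; their titles also carry BM and CD41. Abcc4 encodes a membrane pump that exports cyclic nucleotides and thiopurine drugs, and the series is titled for its effect on megakaryocyte formation and on 6-mercaptopurine toxicity. No treatment, strain, sex, age, cell sorting step or deleted exon is given for either group in the sources used here, and the series' text gives 3 for each genotype as the number from mice without tying a sample to an animal. If samples shared an animal, the p-values below would reflect technical spread alone.

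As background, exchange factors load Rap1 with GTP and GTPase-activating proteins (GAPs) return it to the GDP-bound form. In platelets, calcium activates the exchange factor CalDAG-GEFI, the product of Rasgrp2, and the GAP encoded by Rasa3 opposes it. GTP-bound Rap1 recruits talin to the beta subunit of the integrin, kindlin-3 binds the same tail, and together they switch integrin alphaIIb-beta3 to the form that binds fibrinogen. The same machinery serves the beta1 and beta2 integrins of leukocytes.

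Upstream sequences are shown for 3 of the genes, 1 for each layer of the pathway: the exchange factor Rapgef2, which alone among the 10 passed the test below; Rap1b, the more abundant of the GTPase genes; and Fermt3, which encodes kindlin-3. RefSeq sequences (GRCm38.p6) matched 9 of the 10 genes, at 11 start sites. Both strands of the 250 bases before each start were searched for 5 short motifs, and no match of one motif overlapped a match of another in the windows of these genes. Capitals mark the matches, which are written as they read on the strand of the gene, so that the GATA match of Rapgef2 appears as its reverse complement.
Rapgef2 upstream: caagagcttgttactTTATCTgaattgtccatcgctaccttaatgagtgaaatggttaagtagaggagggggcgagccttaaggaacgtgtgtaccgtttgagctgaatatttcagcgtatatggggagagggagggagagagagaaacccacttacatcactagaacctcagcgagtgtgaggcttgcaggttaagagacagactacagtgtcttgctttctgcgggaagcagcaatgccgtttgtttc
Rap1b upstream: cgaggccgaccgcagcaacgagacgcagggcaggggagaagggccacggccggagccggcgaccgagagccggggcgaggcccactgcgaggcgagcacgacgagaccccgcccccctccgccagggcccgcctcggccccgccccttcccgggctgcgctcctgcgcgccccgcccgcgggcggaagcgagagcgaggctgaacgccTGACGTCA
Fermt3 upstream: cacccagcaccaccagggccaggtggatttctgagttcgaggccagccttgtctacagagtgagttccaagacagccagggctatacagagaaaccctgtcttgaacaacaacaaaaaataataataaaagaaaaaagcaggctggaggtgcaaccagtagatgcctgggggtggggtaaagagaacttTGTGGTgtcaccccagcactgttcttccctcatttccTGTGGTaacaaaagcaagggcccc
The Rapgef2 stretch lies on the minus strand at chr3:79145876-79146125, inside the annotated span of the gene but outside its exons, and its GATA match starts 235 bases before the RefSeq start. The Rap1b stretch lies on the minus strand at chr10:117846009-117846224 and stops at its CRE, which starts 42 bases before the RefSeq start; its last 27 bases are annotated as exon. The Fermt3 stretch lies on the minus strand at chr19:7019470-7019719, directly before the annotated gene, with RUNX matches 61 and 24 bases before the start. Of all 32851 upstream windows of this length, 1.55% held a full cAMP response element (CRE), with the letters TGACGTCA. The AP-1 motif, TGAGTCA, was in 4.46% of windows, and the ETS motif, CCGGAAG, in 6.91%. The GATA motif was searched as AGATAA and was in 9.99%, and the RUNX motif, TGTGGT, in 14.0%. Among the 9 genes, the CRE was found for Rap1b, the ETS site for Rasgrp2, the GATA site for Rapgef2 and the RUNX site for Fermt3. No window held the AP-1 site. The ETS window of Rasgrp2 lay inside the annotated gene, with all 250 bases annotated as exon. For Rasgrp2 and Rapgef2, the window of another start held no match. A match is a run of letters and not a measured binding site.

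The WT libraries held 50440283 to 55123551 counts and the Abcc4-/- libraries 67009967 to 99294510, so each mutant library was deeper than each WT library (1.55-fold on average; exact permutation test, two-sided p = 0.1, which 3 against 3 cannot go below). In the rarest member, Rapgef3, the libraries held 388 to 750 counts, and in the most counted, Tln1, 60172 to 122759. Abcc4 stood at 74.2, 71.8 and 75.7 CPM in WT and at 60.1, 60.5 and 62.3 CPM in Abcc4-/-, where CPM is a count scaled to the size of its library after TMM normalization. That was a log2 fold change of -0.28 (edgeR, adjusted p = 0.0026), and because the counts cover the whole gene they do not check the deletion. Over all genes, 17.3% were called at an adjusted p below 0.05 in edgeR's quasi-likelihood test, 8.61% as higher and 8.68% as lower in Abcc4-/-. Among those calls 49.8% were higher. Of the separate calls made on log2(TPM + 1) 28.4% were higher, and on log2(TPM + 0.1) 27.9%, where TPM is the authors' value scaled by gene length. With log2(TPM + 1) centred on the median of each library, 57% of the calls were higher. All 14 of 14 fixed megakaryocyte and platelet markers were counted, Gp6 only at means of 0.22 CPM (WT) and 0.15 CPM (Abcc4-/-). Together their sum per library was 290.5 to 349.7 CPM in WT, against 201.4 to 241 CPM in the mutant. The largest part of that sum was Itga2b, with means of 158 CPM in WT and 96.1 CPM in the mutant. Of the 14 markers, 9 were called lower and 1 higher. The 12 neutrophil markers summed to 22512 to 29281 CPM in WT, against 39615 to 42091 CPM in the mutant, 9 being called higher and 1 lower. Of 8 B cell and 9 T and NK cell markers, 5 and 7 were called higher and none lower. Of 6 eosinophil and 6 mast cell and basophil markers, 3 and 2 were called lower and none higher. Of 10 monocyte and macrophage and 6 dendritic cell markers, 2 and 1 were called lower and none higher. Of 8 erythroid markers, 2 were called higher and none lower. None of the 79 markers of 9 cell types was at 0 in all libraries. The markers' part in the values that follow was not tested, and in such bulk samples fewer cells of a type and less RNA per cell cannot be told apart.

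The 10 genes spanned more than an order of magnitude in level per transcript length, and that order was nearly the same in the 6 libraries. Rasgrp2 was the highest, at 309.63 to 334.9 TPM over the 6 libraries, and stood at rank 406 among 16493 genes by mean TPM. Tln1, the gene of the large cytoskeletal adaptor talin-1, followed at 200.83 to 280.51 TPM and Rap1b at 222.31 to 258.3 TPM; their ranges overlapped, and Tln1 was above Rap1b in 4 of 6 libraries. Fermt3 stood at 175.81 to 213.66 TPM, below the range of Rap1b but overlapping that of Tln1. Rap1a stood at 144.75 to 153.55 TPM, apart from the ranges of the other genes. The GAP genes came next, Sipa1 at 100.06 to 121.08 TPM and Rasa3 at 97.67 to 120.67 TPM, with overlapping ranges, Sipa1 being above Rasa3 in 5 of 6 libraries. Rapgef1 lay at 39.53 to 47.79 TPM. Rapgef2 at 6.14 to 10.16 TPM and Rapgef3 at 6.85 to 8.57 TPM were the lowest and overlapped, at ranks 9307 and 9363. The exchange factor genes thus stood at both ends of the order.

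**Figure D1:**
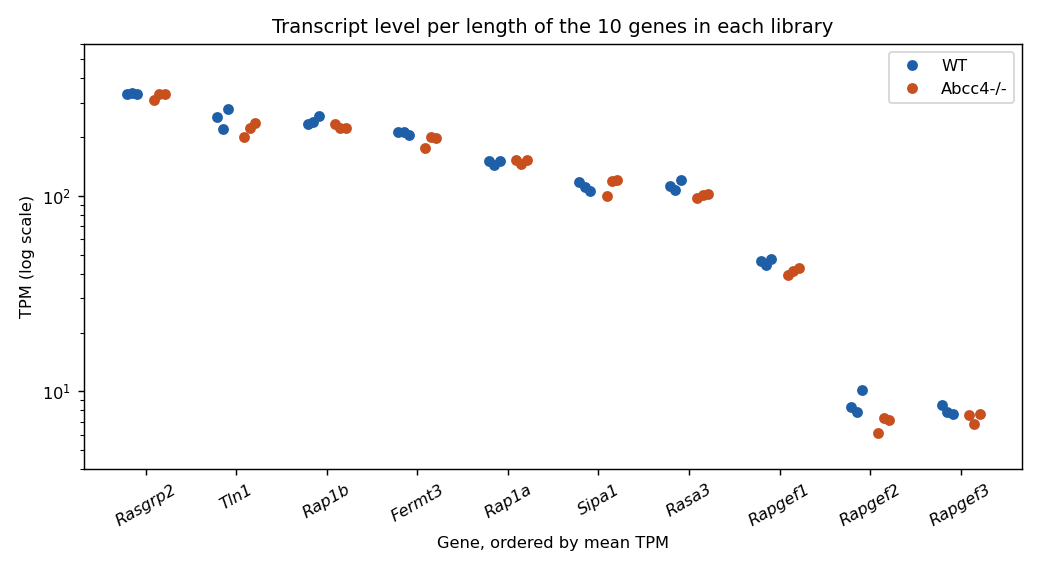
Level of each gene in TPM (log axis, ordered by mean), with 3 points per genotype, 1 for each library. Rasgrp2 lies above 309 TPM in all 6 libraries, and Rapgef2 and Rapgef3 lie between 6.14 and 10.16 TPM with overlapping points.

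Only 1 of the 10 genes passed the test between genotypes, and it fell: Rapgef2. This is 10% of the genes, against 17.3% called over all genes tested, and 0 of the 10 rose. At an unadjusted p below 0.05 edgeR gave 1 of the 10, against 30.9% of all genes. DESeq2 gave 3, against 17.6% of the 26772 genes it tested without the filter. Those include low-count genes that the filter removed, while all 10 genes passed it, so the 17.6% is not a like share. DESeq2 also called 1 after adjustment. Their median log2 fold change was -0.05 and the median over all genes 0.00; without its sign, the median size was 0.06 for the 10 genes and 0.13 for all genes. The estimates were below 0 for 7 genes and above 0 for 3. On log2(TPM + 1), where the median over all genes was -0.063, they were below 0 for 8 and above 0 for 2. On centred log2(TPM + 1) the numbers were again 7 and 3. Within a genotype the replicates of these genes varied by 1.99% to 11.3% of their mean CPM. The groups did not overlap for 4 genes (Rap1a, Rapgef1, Rapgef2 and Rasa3), which is near the 36.8% of all genes whose groups did not overlap. For the 9 genes that did not pass, the 95% intervals of the fold changes reached at most 15.6% below and 17.0% above the WT level. Most of these intervals were narrower, and for each gene only changes within its own interval were neither shown nor excluded.

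**Figure D2:**
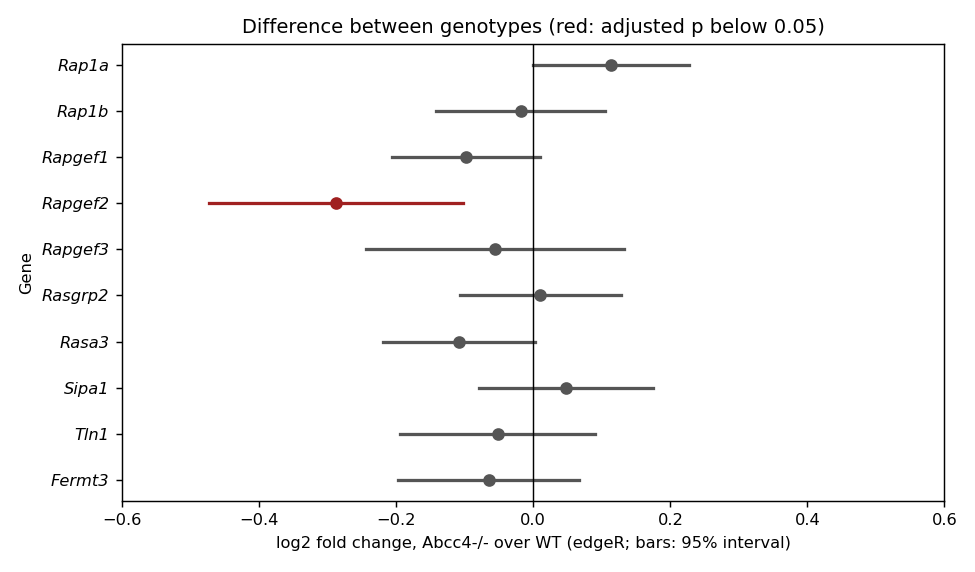
Log2 fold change of Abcc4-/- over WT for each gene (point) with its 95% interval (bar); red marks an adjusted p below 0.05 in edgeR. The Rapgef2 interval (-0.47 to -0.10) excludes 0, and the intervals of the other 9 genes include it.

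The GTPase genes themselves were measured at close levels in both genotypes. Rap1b (ENSMUSG00000052681.8, chromosome 10, 117813871 to 117846035, minus strand, GRCm38), which encodes the main Rap1 protein of platelets, stood at 438, 448 and 462 CPM in WT and at 470, 436 and 425 CPM in Abcc4-/-. The Abcc4-/- libraries lay on both sides of the WT ones, and the log2 fold change was -0.02 (SE 0.06; 95% interval -0.14 to 0.10; edgeR, adjusted p = 0.866). Rap1a (ENSMUSG00000068798.10, chromosome 3, 105727267 to 105801336, minus strand), its close paralogue, stood at 149, 145 and 141 CPM in WT and at 165, 153 and 153 CPM in Abcc4-/-. All 3 Abcc4-/- values lay above the WT values, yet the difference did not pass (log2 fold change 0.11, SE 0.05, 95% interval -0.0007 to 0.23, adjusted p = 0.165). On the TPM scale the 2 groups of Rap1a overlapped, at 150.24, 144.75 and 151.41 in WT and 153.55, 145.72 and 152.93 in Abcc4-/-, and the log2 fold change on log2(TPM + 1) was 0.02.

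The balance of the 2 GTPase transcripts can be read within each library, where scaling between libraries cancels. Rap1b exceeded Rap1a by 1.56-fold, 1.65-fold and 1.71-fold in WT and by 1.52-fold, 1.53-fold and 1.46-fold in Abcc4-/- (ratio of TPM). Every WT ratio lay above every Abcc4-/- ratio, the means being 1.64 ± 0.07 and 1.5 ± 0.04 (SD, n = 3), given as a description with no test. Rap1a was also the 1 gene of the 10 whose deposited counts were not whole in any of the 6 libraries, which RSEM gives where reads are divided between genes. Of its 2771 distinct 100-base transcript windows, 2.53% occur letter for letter in the gene model Gm9392, and 0% of the windows of the other 9 genes, Rap1b included, occur in another gene. Gm9392 itself held 164.27 to 364.21 counts a library, beside 7371.73 to 15128.79 for Rap1a in the same libraries, and the division of reads between the 2 models makes the value of Rap1a less certain than the others.

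Among the exchange factors, Rasgrp2 differed little between the genotypes while the scarce Rapgef2 was lower. Rasgrp2 (ENSMUSG00000032946.16, chromosome 19, 6399340 to 6415216, plus strand) stood at 233, 243 and 221 CPM in WT and at 225, 238 and 239 CPM in Abcc4-/-. The groups overlapped almost fully (log2 fold change 0.01, SE 0.05, 95% interval -0.11 to 0.13; edgeR, adjusted p = 0.924). Rasgrp2 made up 83.5% to 85.8% of the summed TPM of the 4 exchange factor genes in each library.

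Rapgef2 (ENSMUSG00000062232.14, chromosome 3, 79062516 to 79286517, minus strand) encodes PDZ-GEF1, an exchange factor for Rap1 and Rap2 that carries a PDZ domain. It stood at 41, 38.5 and 47.8 CPM in WT and at 32.0, 36.8 and 35.4 CPM in Abcc4-/-, so the highest Abcc4-/- library lay just below the lowest WT library. The means of 42.4 ± 4.8 and 34.8 ± 2.49 CPM (SD, n = 3) gave a 1.22-fold fall (log2 fold change -0.29, SE 0.08, 95% interval -0.47 to -0.10; edgeR, adjusted p = 0.0395). The call held on few libraries: it was lost without any library other than WT replicate 2 (adjusted p = 0.0540 to 0.141, against 0.0196 without WT replicate 2), while the log2 fold change stayed between -0.35 and -0.19. It was also lost on the 3 TPM scales (adjusted p = 0.0805 to 0.126, log2 fold change -0.35 to -0.23). It was kept with DESeq2 (adjusted p = 0.0139) and with the libraries thinned to the smallest total (0.0292). The share of genes called was 17.3% of the 16976 genes given an adjusted p by DESeq2, and 12.3% of 26780 genes with no filter. The share was 17.2% with RLE size factors, 16.6% after thinning and 19.1% with the replicate number as a block. It was 12.8% on log2(TPM + 1), 13.1% on log2(TPM + 0.1) and 12.1% on the centred scale. Leaving out WT replicates 1, 2 and 3 gave 13.4%, 14.1% and 14.3%, and leaving out Abcc4-/- replicates 1, 2 and 3 gave 11%, 10.6% and 12.9%, so each library left out lowered the number of calls over the whole table too.

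**Figure D3:**
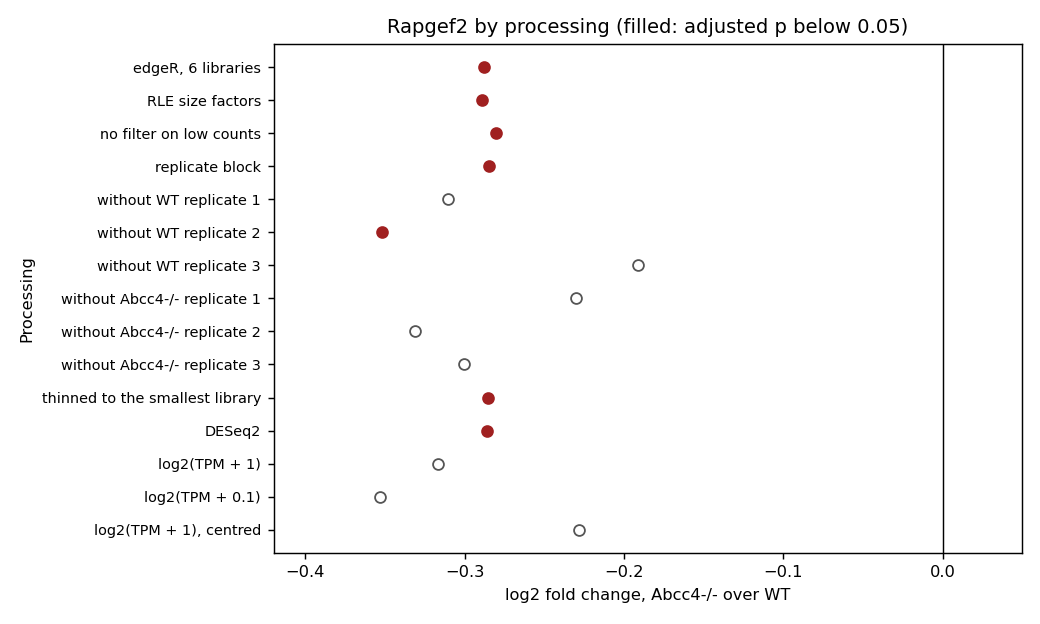
Log2 fold change of Rapgef2, Abcc4-/- over WT, under each way of processing (1 point each; filled, adjusted p below 0.05). All 15 points lie below 0, and 7 are filled.

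Rapgef1 (ENSMUSG00000039844.19, chromosome 2, 29619720 to 29740978, plus strand) encodes an exchange factor that the adaptors Crk and Crkl bring to the membrane. It stood at 175, 166 and 172 CPM in WT and at 154, 161 and 164 CPM in Abcc4-/-. Each WT library was above each Abcc4-/- library, by an amount that did not pass (log2 fold change -0.10, SE 0.05, 95% interval -0.21 to 0.01, adjusted p = 0.205). Rapgef3 (ENSMUSG00000022469.17, chromosome 15, 97744770 to 97767972, minus strand) encodes EPAC1, the exchange factor that cAMP opens directly. Its level was 8.31, 8.08 and 7.13 CPM in WT and 7.76, 7.60 and 7.28 CPM in Abcc4-/-. The groups overlapped, and among the genes not called its interval reached lowest (log2 fold change -0.06, 95% interval -0.24 to 0.13, adjusted p = 0.712). Rasgrp2 outnumbered the 3 Rapgef genes together by 5.06-fold to 5.58-fold in WT and by 5.82-fold to 6.05-fold in Abcc4-/- (ratio of TPM, given with no test).

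The GAP genes that unload Rap1 did not pass in either direction. Rasa3 (ENSMUSG00000031453.16, chromosome 8, 13566948 to 13677603, minus strand) stood at 313, 295 and 314 CPM in WT and at 281, 291 and 282 CPM in Abcc4-/-. The groups were apart by a narrow gap, and the log2 fold change of -0.11 (SE 0.05, 95% interval -0.22 to 0.00) had an adjusted p of 0.172. Sipa1 (ENSMUSG00000056917.13, chromosome 19, 5651185 to 5663707, minus strand), which encodes the Rap GAP SPA-1 of blood cells, stood at 232, 233 and 213 CPM in WT and at 221, 243 and 237 CPM in Abcc4-/-. Its groups overlapped (log2 fold change 0.05, SE 0.06, 95% interval -0.08 to 0.17, adjusted p = 0.632). Set against each other within a library, the 4 exchange factor genes held 1.72 to 1.8 times the TPM of Rasa3 and Sipa1 in WT and 1.76 to 1.83 times in Abcc4-/-, so these ranges overlapped.

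**Figure D4:**
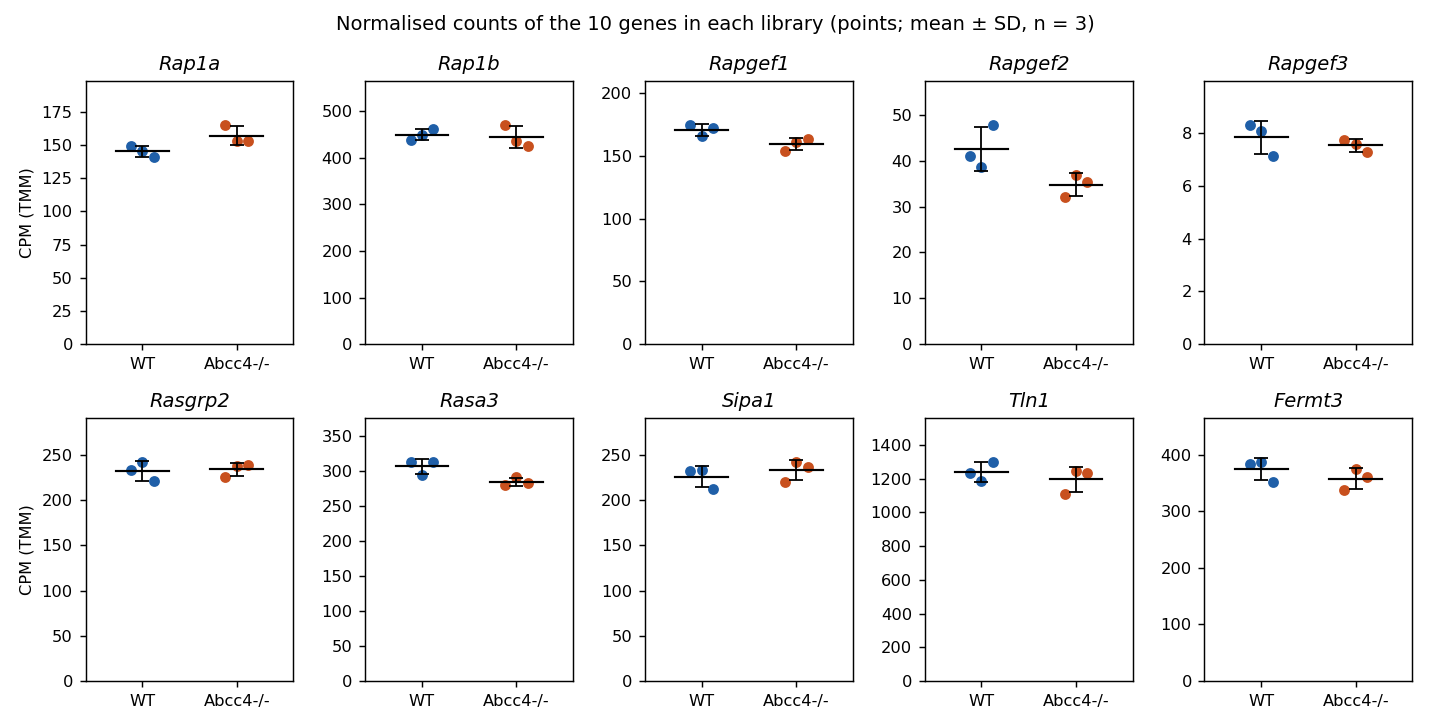
CPM of each gene in every library (points), with the mean (line) and SD (bar) of the 3 libraries of a genotype; each axis starts at 0. The groups are apart for Rap1a, Rapgef1, Rapgef2 and Rasa3 and overlap for the other 6 genes.

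The adaptors that act on the integrin tail were abundant and did not pass either. Tln1 (ENSMUSG00000028465.16, chromosome 4, 43531519 to 43562691, minus strand) stood at 1232, 1186 and 1301 CPM in WT and at 1110, 1244 and 1234 CPM in Abcc4-/-. The groups overlapped, with Abcc4-/- replicate 1 the lowest of the 6 (log2 fold change -0.05, SE 0.07, 95% interval -0.19 to 0.09, adjusted p = 0.641). Fermt3 (ENSMUSG00000024965.9, chromosome 19, 6998958 to 7019469, minus strand) stood at 384, 388 and 352 CPM in WT and at 338, 375 and 362 CPM in Abcc4-/-. Its groups overlapped too, and Abcc4-/- replicate 1 was again the lowest (log2 fold change -0.07, SE 0.06, 95% interval -0.20 to 0.07, adjusted p = 0.509). Their relatives were scarce, as seen in genes picked after their values were known: Fermt1 had 0 counts in all 6 libraries, Fermt2 had 5 to 10, and Tln2 stood at 0.27 TPM in WT and 0.34 TPM in Abcc4-/-.

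Of the platelet integrin that the pathway serves, the alpha subunit gene fell and the beta subunit gene was not called. Itga2b, the alpha subunit also known as CD41, stood at 138, 169 and 167 CPM in WT and at 80.5, 107 and 101 CPM in Abcc4-/-, a 1.64-fold fall (log2 fold change -0.72, SE 0.12; edgeR, adjusted p = 0.0106). Its partner Itgb3, whose tail talin and kindlin-3 bind, stood at 66.9, 68.2 and 74.8 CPM in WT and at 71.4, 76.0 and 69.1 CPM in Abcc4-/- (log2 fold change 0.05, adjusted p = 0.651). The TPM ratio of Itga2b to Itgb3 was 4.82, 5.86 and 5.45 in WT and 2.69, 3.32 and 3.67 in Abcc4-/-, and that of Itga2b to Rasgrp2 was 0.23 to 0.31 in WT and 0.14 to 0.18 in Abcc4-/-. These ratios did not overlap between genotypes and are given with no test. Of the 14 megakaryocyte and platelet markers, which include Itga2b and Itgb3, 9 were called lower, 1 higher and 4 in neither direction. The Itga2b call was lost without WT replicate 3 (adjusted p = 0.0667) and with no filter on low counts (0.0504).

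Of 11 integrin subunit genes in a fixed list, 2 fell and 1 rose, against 17.3% of all genes called (median log2 fold change -0.03). Besides Itga2b, the laminin receptor subunit Itga6 fell 1.18-fold (edgeR, adjusted p = 0.0174), and Itgb2, the beta subunit shared by the leukocyte integrins, rose 1.17-fold (702 ± 37.9 to 818 ± 20.5 CPM, adjusted p = 0.0232). Itgam, the alpha subunit that pairs with Itgb2 in myeloid cells, had a log2 fold change of 0.49 and an adjusted p of 0.0769, and Itgb1 one of -0.03 and 0.720. The Itga6 call was lost without Abcc4-/- replicate 1 (adjusted p = 0.0766) or 2 (0.0758), and on centred log2(TPM + 1) (limma, 0.0529). The Itgb2 call was lost without WT replicate 2 (0.0622) or Abcc4-/- replicates 2 (0.105) or 3 (0.0602) and on the 3 TPM scales (0.0506 to 0.129). Of the 12 neutrophil markers, 9 were called higher and 1 lower in the same Abcc4-/- libraries. Their part in the Itgb2 and Itgam values was not tested.

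Other genes of the pathway were counted in 7 further lists, and with the integrins 15 of 68 tested genes were called, 7 higher and 8 lower; that is 22.1%, against 17.3% of all genes, and the median log2 fold change of the 68 was 0.01. The GAPs outside Rasa3 and Sipa1 held the most calls for their number: 2 of 7 fell and 2 rose (median -0.04). Sipa1l3 fell 1.23-fold (62.9 ± 2.98 to 51.3 ± 4.63 CPM; edgeR, adjusted p = 0.0128) and Rasa4, a GAP that calcium recruits to the membrane, fell 1.19-fold (adjusted p = 0.0115). Rasal1 rose 1.56-fold from a low level (2.87 ± 0.33 to 4.49 ± 0.07 CPM, adjusted p = 0.0037) and Sipa1l2, picked after its value was seen, rose 1.18-fold (adjusted p = 0.0395). The Rasa4 call was lost without Abcc4-/- replicate 1 (adjusted p = 0.0502), that of Rasal1 on the TPM scales, and that of Sipa1l2 there and without WT replicates 2 or 3 or Abcc4-/- replicates 2 or 3 (0.0733 to 0.135). The third relative of Sipa1 in the list, Sipa1l1, also named after its value was seen, had a log2 fold change of -0.04 (adjusted p = 0.737). Rap1gap2, the platelet form of the Rap1 GAP, had a log2 fold change of -0.02 (adjusted p = 0.801).

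In a list of 4 genes, other Rap genes and the chaperone gene Rap1gds1, Rap2b fell 1.15-fold and Rap2c rose 1.12-fold (edgeR, adjusted p = 0.0245 and 0.0379). That is 50% of the list, against 17.3% of all genes called. The Rap2b call was lost without any library other than WT replicate 2 (adjusted p = 0.0563 to 0.0851). That of Rap2c was lost without WT replicate 2 or any Abcc4-/- replicate (0.0647 to 0.115) and with the libraries thinned (0.0677). Both were lost on the TPM scales. The estimates for Rap2a (-0.05, adjusted p = 0.602) and for Rap1gds1, which encodes a chaperone of small GTPases (0.06, adjusted p = 0.452), were not called. None of 7 other exchange factors tested was called in edgeR with all 6 libraries, which gave 2 at an unadjusted p below 0.05, while DESeq2 called Rasgrp1 and Rasgrp4. In other edgeR fits 2 were called without WT replicate 1, and 1 each without WT replicate 2, without Abcc4-/- replicate 1 and with no filter on low counts. The edgeR value of Rasgrp1, the lymphocyte relative of Rasgrp2, came nearest to a call (log2 fold change 0.46, adjusted p = 0.0531), and Rapgef4 (EPAC2) and Rapgef6 (PDZ-GEF2) had log2 fold changes of -0.28 and 0.00 (adjusted p = 0.380 and 0.992). Plce1 had 2 to 6 counts a library and was not tested.

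Among 9 tested adaptors between Rap1 and talin, Skap2 rose 1.11-fold and Raph1 (lamellipodin) fell 1.26-fold (edgeR, adjusted p = 0.0465 and 0.0408). These calls are 22.2% of the adaptors tested, against 17.3% of all genes. Skap2 was not called without any 1 of the 6 libraries (adjusted p = 0.0643 to 0.142), with no filter on low counts (0.0587) or after thinning (0.0577). Raph1 was not called without WT replicates 1 or 3 or Abcc4-/- replicates 1 or 2 (0.062 to 0.144), and neither was called on the TPM scales. Apbb1ip, which encodes RIAM, the linker of Rap1 to talin, averaged 188 ± 7.22 CPM in the WT libraries, against 194 ± 1.73 CPM in the mutant (log2 fold change 0.05, adjusted p = 0.584), and Rassf5 (RAPL) had a log2 fold change of 0.10 (adjusted p = 0.191). Neither Fyb (log2 fold change -0.21, adjusted p = 0.0646) nor Skap1 (0.31, 0.107) was called. Of 7 talin and kindlin partners and 5 brakes on integrin activation, none was called in edgeR with all 6 libraries or with DESeq2, and edgeR gave 2 and 0 at an unadjusted p below 0.05 (30.9% of all genes); without WT replicate 2, edgeR called 1 of the partners; the smallest adjusted p were 0.0597 for Parvb and 0.360 for Itgb1bp1.

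Upstream of Rap1, 2 of 18 receptor and signalling genes fell and 2 rose (median log2 fold change -0.05), a count near the 17.3% of all genes called. The 4 calls became 6 with no filter on low counts and 2 without WT replicate 2, Abcc4-/- replicate 1 or Abcc4-/- replicate 3. Both genes that fell encode thrombin receptors. F2r, which encodes PAR1, stood at 29.6, 30.9 and 34.8 CPM in WT and at 16.8, 20.7 and 18.4 CPM in Abcc4-/- (1.70-fold; edgeR, adjusted p = 0.00027). F2rl2, which encodes PAR3, the thrombin cofactor of mouse platelets, fell 1.55-fold (6.67 ± 0.87 to 4.30 ± 0.33 CPM, adjusted p = 0.0039). The third thrombin receptor gene of the list, F2rl3 (PAR4), named after its value was seen, was not called (log2 fold change -0.10, adjusted p = 0.773). Crk rose 1.14-fold and Pik3cb, the PI3-kinase subunit active in platelets, rose 1.12-fold (adjusted p = 0.0198 and 0.0371), and Crkl, the relative of Crk, had a log2 fold change of 0.05 (adjusted p = 0.559). Crk lost its call without WT replicate 2 or Abcc4-/- replicates 1 or 3 (adjusted p = 0.0509 to 0.0852), Pik3cb without any library other than WT replicate 1 (0.0584 to 0.121), and both on the TPM scales. Of the 15 calls outside the 10 genes, 3 (Sipa1l3, F2r and F2rl2) held in all 14 other ways of processing, and 12 were lost in at least 1 (adjusted p = 0.0502 to 0.797 where lost), 11 of them without some single library. All 15 kept their direction throughout.

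**Figure D5:**
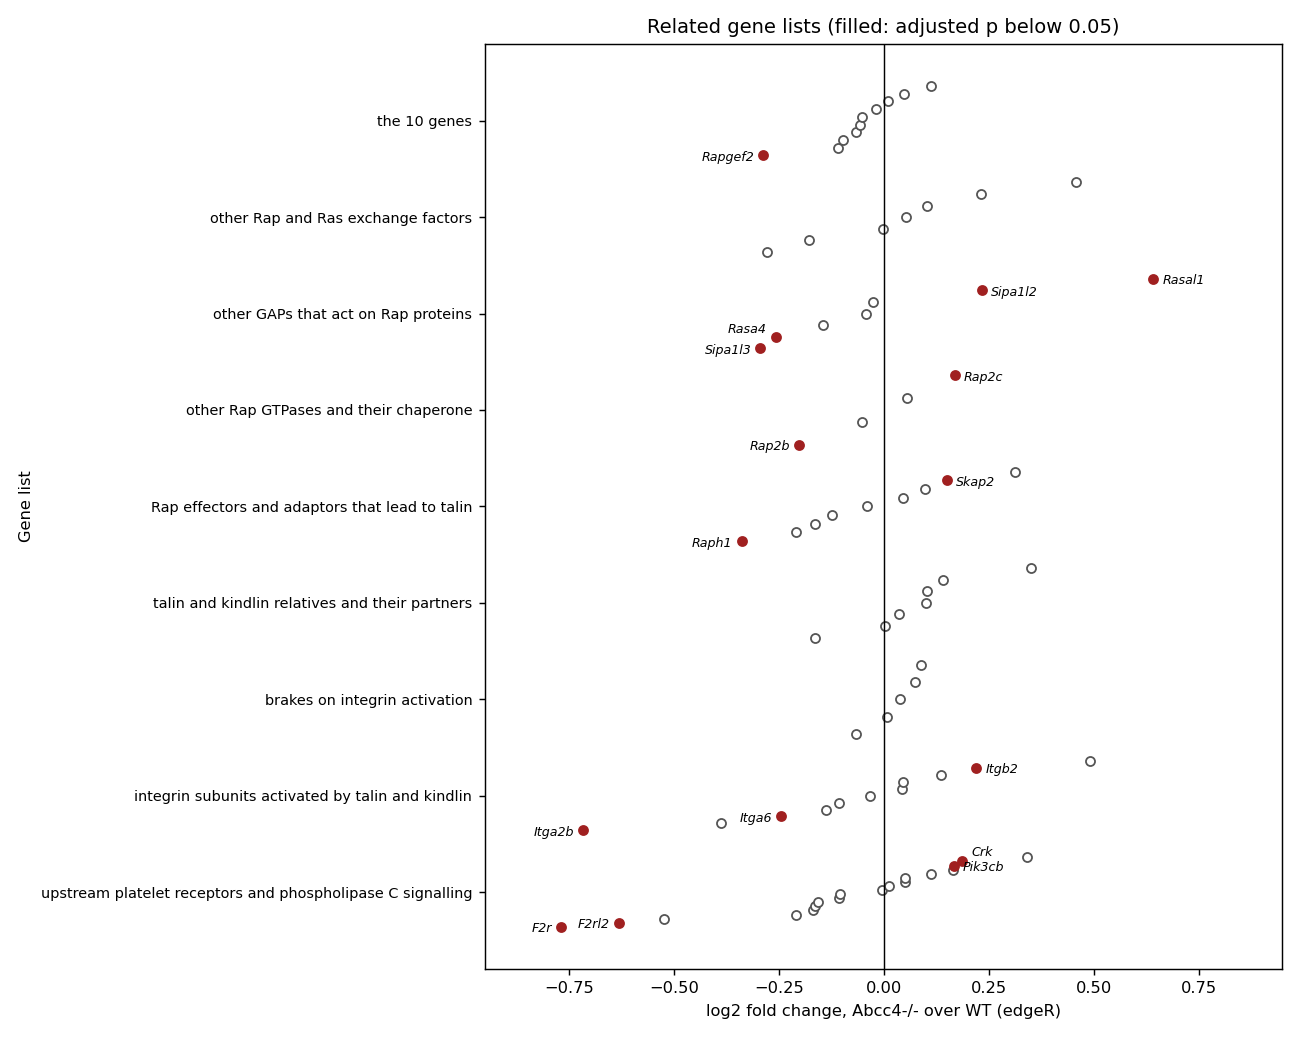
Log2 fold change of Abcc4-/- over WT for each tested gene, by list (filled, adjusted p below 0.05 in edgeR; the name stands beside it). The 10 genes lie between -0.29 and 0.11, and F2r, Itga2b and F2rl2 lie lowest, at -0.77, -0.72 and -0.63.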

How the data were processed

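Stranded mRNA libraries were sequenced from both fragment ends, per the labels' protocols. The submitters' processing notes list STAR 2.7, RSEM 1.3.1 and mm10, and name no annotation release. Expected counts per gene, not normalized, and TPM were deposited by the authors. Spike-in entries (92) were left out. The rounded counts went through edgeR 4.0.16 under R 4.3.3, with TMM scaling, the default low-count filter, the quasi-likelihood test (robust) between genotypes and Benjamini-Hochberg adjustment over 16493 genes, with calls below 0.05. SE and 95% intervals came from the fold change, its statistic and its degrees of freedom. Alternatives used DESeq2 1.42.0, limma 3.58.1 on log2 TPM after adding 1 or 0.1, which shrinks the change of a low gene, RLE scaling, no filter, the replicate number as a block and each library left out; thinning was added after seeing the data.

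Positions came from GENCODE M21 (GRCm38), where 55094 of 55573 versioned identifiers matched. Members and lists were chosen with earlier results of these data known. One gene of the related lists is not reported here and is left out of their counts. The naming rule took all 10 genes, Abcc4 and 11 genes set by name. It also took up to 4 genes of each related list with the smallest adjusted p (the 1 with the smallest p where none was called). Sipa1l1, Sipa1l2, Rasgrp4, F2rl3, Tln2, Fermt1, Fermt2, Plce1, Gp6 and Gm9392 were named after their values were seen. Libraries of a genotype differed by more than sampling noise in every pair (lowest chi-square 11.8 times its degrees of freedom).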

Additional observations from a re-analysis of the deposited data

How the results depend on the processing

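Rapgef2 was the 1 gene of the 10 called in the reported fit, with RLE factors, no low-count filter, thinning, DESeq2, and without WT replicate 2. The number called was 0 on log2(TPM + 1), log2(TPM + 0.1) and centred log2(TPM + 1), and 0 to 1 when 1 library was left out; at an unadjusted p below 0.05 the 3 TPM scales gave 4, 4 and 1 (30.8%, 30.9% and 28.6% of all genes). Genes called over the whole table numbered 2852, and 1760 to 2415 without 1 library, lowest without Abcc4-/- replicate 2 (1760) or 1 (1821). Of 140 values of the 10 genes under 14 alternatives, 8 changed sign, none called: Rap1b without WT replicate 3 (log2 fold change 0.0032) and without Abcc4-/- replicate 3 (0.0114; -0.06 to 0.0114 over all left-out libraries); Rasgrp2 without WT replicate 3 (-0.0227) and Abcc4-/- replicates 2 (-0.001) and 3 (-0.0034; range -0.0227 to 0.0431), and on log2(TPM + 1) (-0.0332) and log2(TPM + 0.1) (-0.0333); and Tln1 without Abcc4-/- replicate 1 (0.0016; range -0.0822 to 0.0016). On log2(TPM + 1) and log2(TPM + 0.1) the median log2 fold change over all genes was -0.063 and -0.081. The replicate number as a block gave 3157 calls, 8 in place of 4 among the 18 upstream genes. It kept Rapgef2 (log2 fold change -0.28, edgeR, adjusted p = 0.026). Same-numbered libraries did not deviate together (correlations -0.046, -0.026 and -0.014), and pairs of unlike number gave -0.06 to 0.085. With 3 libraries a group, these values cannot decide whether the numbers pair samples. Over the 14 alternatives the calls numbered 2 to 8 of the 18 upstream genes, 1 to 4 of the integrins and 2 to 4 of the GAPs. They numbered 0 to 2 of the other Rap genes with their chaperone and 0 to 3 of the adaptors. Counts were at least 388 for each of the 10 genes, and the small number of libraries limits these comparisons.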

Other observations

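Within the Abcc4-/- group, replicate 1 was the highest or the lowest library for 10 of the 10 genes: highest for Rap1a, Rap1b and Rapgef3 and lowest for the other 7. Over all 16493 genes it was at an extreme of its group for 76.1%, the largest share of the 6 libraries, beside 74.1% for WT replicate 3, which was at an extreme for 9 of the 10. It is also the least deep of the Abcc4-/- libraries, with 67009967 counts.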
